A study of Arabidopsis thaliana with 9 samples.

Results

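Probe sets for 7 Arabidopsis thaliana genes of flowering time and phase change were followed across seedlings of 3 genotypes. The genes were the AP2-like repressors SMZ and SNZ, the autonomous pathway genes LD and FY, the MADS-box genes AGL18 and AGL24, and GIGANTEA (GI). They were matched by symbol in the platform's probe annotation, the list itself having been drawn up with earlier results of these data known, and each symbol had 1 probe set, giving 7 of the 9335 probe sets that carried 1 gene name (16826 with the unnamed ones). Col-0 served as wild type, and cct-1 and gct-2 were mutants in that background. All grew in soil at a constant 23 °C under long days (16 h light, 8 h dark). Above-ground parts were taken when the first leaf primordia measured 1 mm, at 7 days in wild type and 9 days in both mutants, so genotype and 2 days of age cannot be told apart in any comparison with wild type. Each genotype had 3 arrays, each from a separate biological replicate pooled from 75 to 100 seedlings. Seedlings without cotyledons or leaf primordia were not used, so the mutant pools stand for the plants that had formed both. The labels give no description of the lesion in either allele.

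The products of CCT and GCT, MED12 and MED13, belong to the CDK8 module, which docks to the Mediator complex and modulates its contact with RNA polymerase. A plant moves from juvenile to adult growth and then to flowering as repressors are withdrawn and promoters accumulate. SMZ and SNZ, close relatives of APETALA2, repress flowering and are targets of the microRNA miR172, which increases with age. The autonomous pathway lowers the floral repressor FLC, MADS-box factors act as repressors or promoters of the floral switch, and GI links the circadian clock to the photoperiod pathway.

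Values were log2 probe set expression as the authors deposited them. A filter on dim signals, the 40th percentile of each array, lay between 6.83 and 6.87, and a probe set was tested in the filtered fit when it exceeded that level on at least 3 arrays. SMZ, SNZ, LD, FY and AGL18 passed it, and AGL24 and GI did not. The latter 2 are therefore given from a fit with no filter, and whether levels under the filter exceed background is not known. The annotation named no probe set for the mutated genes CCT and GCT, and the genotype labels could not be checked on them. Of 6 leaf photosynthesis markers 4 had a named probe set, all above the filter on 9 of 9 arrays. Of 6 root markers only PYK10, an abundant beta-glucosidase of root and hypocotyl, was measured, at 11.5 ± 0.14 in wild type, 12.2 ± 0.10 in cct-1 and 12.2 ± 0.10 in gct-2 (log2, SD, n = 3 each). PYK10 rose in both mutants (log2 change 0.75 and 0.68, limma adjusted p = 0.0019 and 0.00248), and its part in the differences below was not tested. In pooled seedlings, fewer cells expressing a gene and less RNA per cell cannot be told apart.

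SMZ (AT3G54990), the APETALA2-like repressor of flowering, was the member above the filter with the largest differences from wild type. The 3 wild-type arrays read 7.58, 6.96 and 6.11, the 3 cct-1 arrays 8.29, 7.76 and 7.43, and the 3 gct-2 arrays 8.13, 7.99 and 7.92 (replicates 1, 2 and 3). All gct-2 arrays lay above all wild-type arrays, whereas cct-1 replicate 3 lay under wild-type replicate 1. Wild type also varied most, with an SD of 0.74 against 0.43 in cct-1 and 0.11 in gct-2, and its replicate 3 lay under the filter.

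Against wild type, SMZ was 1.92-fold higher in cct-1 (log2 difference 0.94, SE 0.34, limma adjusted p = 0.0994) and 2.18-fold higher in gct-2 (1.13, SE 0.34, adjusted p = 0.0524), neither past the threshold of 0.05. With the wild-type value under the filter raised to it, these were at least 1.63-fold and 1.85-fold, bounds that leave the spread between arrays aside. The wild-type arrays are shared by both comparisons. With the mutants pooled, SMZ rose 2.05-fold (log2 change 1.03, 95% interval 0.38 to 1.69, adjusted p = 0.0413), with 5 of 6 mutant arrays above every wild-type array. Omitting single arrays ended that call in 7 of 9 fits, the adjusted p reaching 0.115 without wild-type replicate 2. When the highest control, wild-type replicate 1, was omitted, the single-mutant differences of 1.29 and 1.48 were both called (adjusted p = 0.0305 and 0.0151). Leaving out that control by itself widens the difference. The other 8 of 9 fits that omitted an array called neither, with adjusted p up to 0.248 in cct-1 and 0.124 in gct-2. Both single-mutant differences were called with array weights (0.0488 and 0.0163) and neither in fits of the compared groups alone (0.168 and 0.0678). Between the mutants SMZ differed by -0.19 (cct-1 minus gct-2, 95% interval -0.94 to 0.57, adjusted p = 0.78).

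SNZ (AT2G39250), the other miR172-targeted repressor here, stayed within the spread of the controls. Its wild-type arrays read 7.94, 7.23 and 7.42, its cct-1 arrays 7.71, 7.36 and 7.29, and its gct-2 arrays 7.57, 7.66 and 7.57. Every mutant array fell between the lowest and the highest wild-type array. The log2 difference was -0.08 in cct-1 (95% interval -0.48 to 0.32, limma adjusted p = 0.816) and 0.07 in gct-2 (-0.33 to 0.47, 0.823). The other 4 genes of the miR172-targeted list had no named probe set and were not analysed here.

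**Figure D1:**
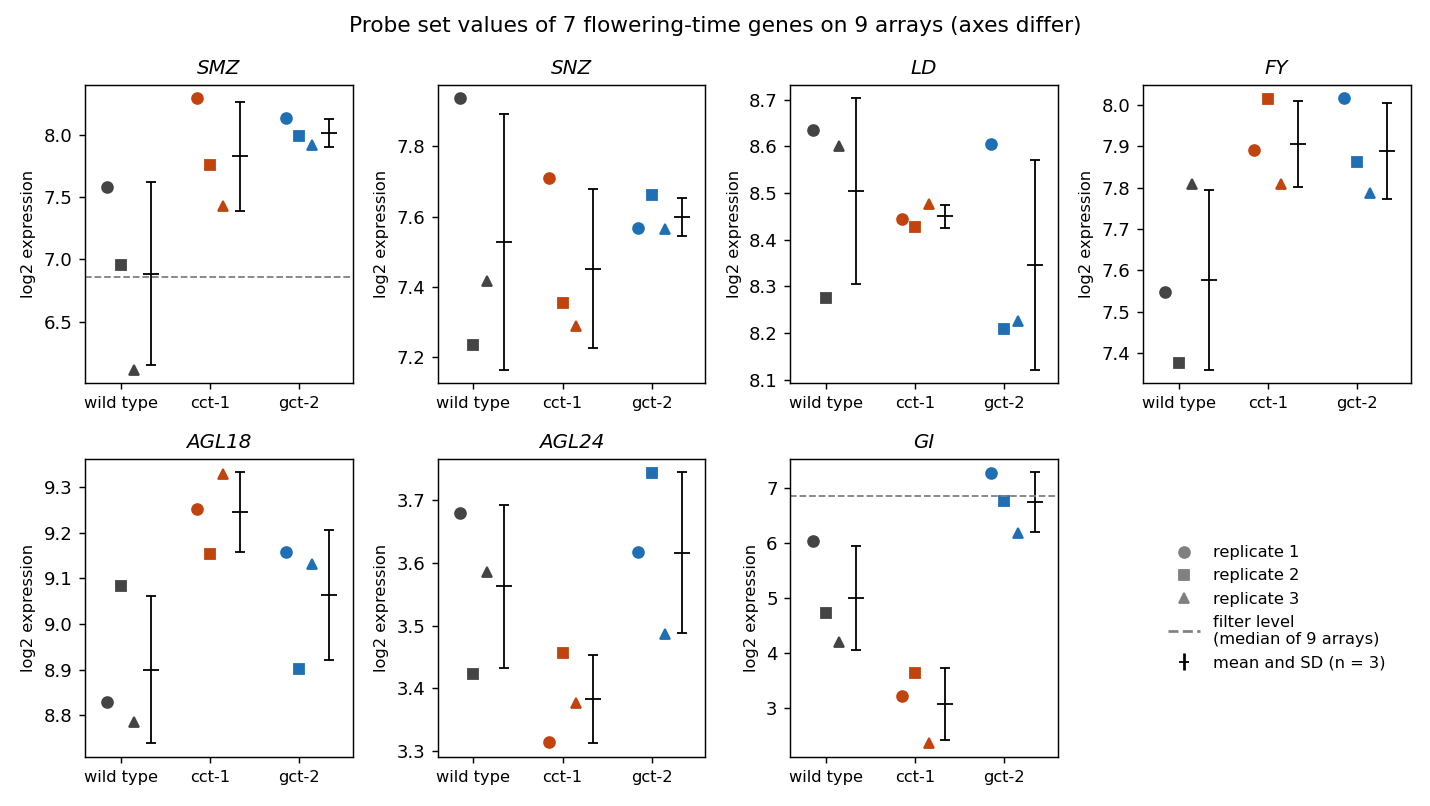
Log2 expression (vertical axes, which differ between panels) of each of the 7 genes on the 3 arrays of each genotype, with a bar for the mean and SD (n = 3) and a dashed line for the median filter level of 6.86, drawn in the SMZ and GI panels. GI falls into 3 levels by genotype, SMZ is lowest in wild type with 1 array under the line, and AGL24 lies below 3.8 throughout.

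Among autonomous pathway genes, FY (AT5G13480), an mRNA 3' end-processing factor that works with the RNA-binding protein FCA, was measured slightly higher in both mutants. Its wild-type arrays read 7.55, 7.38 and 7.81, its cct-1 arrays 7.89, 8.02 and 7.81, and its gct-2 arrays 8.02, 7.86 and 7.79. Wild-type replicate 3 reached the lowest mutant arrays, so the groups met. The log2 difference was 0.33 in cct-1 (SE 0.12, limma adjusted p = 0.105), 0.31 in gct-2 (SE 0.12, adjusted p = 0.111) and 0.32 with both mutants together (adjusted p = 0.0668). None passed. All 3 were called with array weights, and also without wild-type replicate 3, the highest control, whose omission by itself widens the difference. In each comparison the other 8 of 9 fits that omitted an array gave no call. Their limma adjusted p reached 0.3 in cct-1, 0.314 in gct-2 and 0.254 with both mutants together, each without wild-type replicate 2.

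LD (AT4G02560), a homeodomain protein of the same pathway, showed no difference beyond its spread. It read 8.64, 8.27 and 8.60 in wild type, 8.44, 8.43 and 8.48 in cct-1, and 8.60, 8.21 and 8.23 in gct-2. All cct-1 arrays lay inside the wild-type range and 2 gct-2 arrays lay just under it. The log2 differences were -0.05 (95% interval -0.35 to 0.24) and -0.16 (-0.45 to 0.14), with limma adjusted p of 0.828 and 0.445. Of the 8 autonomous pathway genes listed, LD and FY were those with a named probe set.

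AGL18 (AT3G57390), a MADS-box repressor of flowering that acts with AGL15, was measured highest in cct-1. The wild-type arrays read 8.83, 9.08 and 8.79, the cct-1 arrays 9.25, 9.15 and 9.33, and the gct-2 arrays 9.16, 8.90 and 9.13. The cct-1 arrays all lay above the wild-type arrays, by a margin of 0.07, and gct-2 lay between and overlapped both. AGL18 differed from wild type by 0.35 in cct-1 (log2, 95% interval 0.10 to 0.59, limma adjusted p = 0.0657) and by 0.16 in gct-2 (-0.08 to 0.41, 0.332). The mutants differed from each other by 0.18 (adjusted p = 0.359), so the order of the 3 genotypes was not resolved.

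AGL24 (AT4G24540), a MADS-box promoter of flowering that acts with SOC1, lay far under the filter on 9 of 9 arrays. Readings were 3.68, 3.42 and 3.59 in wild type, 3.32, 3.46 and 3.38 in cct-1, and 3.62, 3.74 and 3.49 in gct-2. All 3 cct-1 arrays were under all 3 gct-2 arrays, by 0.03, and in the fit with no filter the difference was -0.23 (log2, cct-1 minus gct-2, limma adjusted p = 0.239). Differences of this size under the filter cannot be read as differences in transcript level.

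Of the 17 flowering MADS factors listed, the third with a named probe set was AGL19, a promoter of flowering in the response to cold. AGL19 rose in cct-1 (log2 change 0.54, SE 0.14, limma adjusted p = 0.0371 in the fit with no filter) and differed by 0.30 in gct-2 (adjusted p = 0.167). It lay under the filter on every array, at 2.70 to 3.60, and omitting single arrays ended the call in 5 of 9 fits (highest adjusted p = 0.118, without cct-1 replicate 2). Fitting wild type and cct-1 alone also ended it (adjusted p = 0.0571).

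GI (AT1G22770), a large clock-controlled protein that promotes CONSTANS expression together with the F-box protein FKF1, separated the genotypes most. The wild-type arrays read 6.05, 4.73 and 4.21, the cct-1 arrays 3.21, 3.64 and 2.36, and the gct-2 arrays 7.28, 6.77 and 6.19. No 2 genotypes overlapped: every cct-1 array lay under every wild-type array and every gct-2 array above them, the nearest pair, wild-type replicate 1 and gct-2 replicate 3, being 0.15 apart. That order without overlap was held by 71 of all 16826 probe sets (0.422%), and the reverse order, cct-1 highest and gct-2 lowest, by 108 (0.642%).

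As measured, GI was 12.8-fold lower in cct-1 than in gct-2 (log2 difference -3.67, SE 0.50, 95% interval -4.80 to -2.55), both at 9 days of age. The limma adjusted p was 0.00765 in the fit with no filter. Over all 16826 probe sets 7, GI included, differed by at least this much between the mutants, and of the 6431 that failed the filter GI was the 1 that did. A probe set above the filter on all 3 arrays of 1 mutant passes it, so the filter itself keeps large differences out of the 6431. The call held in each of the 9 fits that omitted an array, with differences of -3.96 to -3.32. The highest adjusted p among them was 0.0334, without gct-2 replicate 2.

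Each mutant also differed from wild type in GI, in opposite directions. GI fell by 1.92 in cct-1 (log2, SE 0.50, limma adjusted p = 0.0383, 3.79-fold as measured) and rose by 1.75 in gct-2 (SE 0.50, adjusted p = 0.0443, 3.36-fold as measured). The mean of both mutants was thus close to wild type (-0.09, adjusted p = 0.915). These calls were less stable than the one between the mutants. Omitting single arrays ended the cct-1 call in 6 of 9 fits (highest adjusted p = 0.101, without cct-1 replicate 3) and the gct-2 call in 7 of 9 (0.131, without wild-type replicate 2). Both were lost in fits of the 2 groups alone (0.0681 and 0.0626).

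GI was dim: 8 of its 9 readings lay under the filter of their array, the exception being gct-2 replicate 1. The folds above are ratios of measured values, and with dim levels raised to the filter none of the 3 comparisons had a lower bound above 1-fold. With all of its dim readings raised to the filter before the fit, the difference between the mutants was -0.12 (limma adjusted p = 0.421) and the calls against wild type were also lost. That outcome was fixed in advance, since every reading but gct-2 replicate 1 was set to its array's filter level. It is no test of the differences. GI transcript is known to cycle over the day. Per the labels, seedlings were collected in small lots that went round all 9 tubes to even out collection time. The hour of collection is not stated in the labels.

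**Figure D2:**
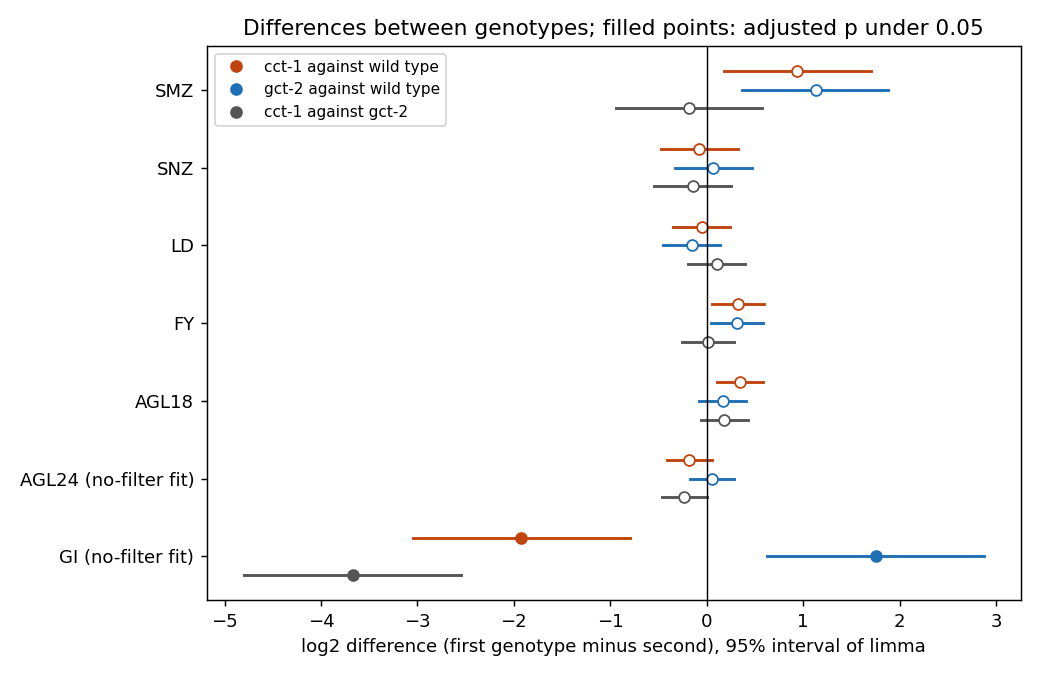
Log2 difference between genotypes (horizontal axis, first genotype minus second) for each gene, with the 95% interval from limma. Filled points have an adjusted p under 0.05. AGL24 and GI come from the fit with no filter. The filled points are the 3 of GI, at -1.92, 1.75 and -3.67.

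Other genes of the photoperiod pathway and the clock were thinly covered. Of 27 listed genes, GI and CDF5 had a named probe set. CDF5, a DOF-family repressor of CONSTANS and FT of the group whose proteins are removed with the help of GI and FKF1, read 5.47, 5.83 and 6.15 in wild type, 3.70, 3.78 and 3.89 in cct-1, and 5.00, 5.64 and 5.61 in gct-2. The cct-1 arrays lay under all others. CDF5 fell by 2.03 in cct-1 (log2, SE 0.21, limma adjusted p = 0.000678 in the fit with no filter) and differed by -0.40 in gct-2 (adjusted p = 0.222). Between the mutants the difference was -1.62 (adjusted p = 0.00637), and both this call and the one in cct-1 held in 9 of 9 fits that omitted an array. All of its readings lay under the filter.

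Of 2 further clock genes, added once the coverage of the lists was known, TIC (TIME FOR COFFEE) lay above the filter and differed by 0.22 and 0.00 (log2, limma adjusted p = 0.626 and 0.996). FIO1 (FIONA1), an RNA methyltransferase that affects clock period and flowering, was measured higher in gct-2 (log2 change 0.63, adjusted p = 0.0458 in the fit with no filter) and differed by 0.10 in cct-1. It lay under the filter on every array, and omitting single arrays ended the call in 7 of 9 fits (highest adjusted p = 0.121, without wild-type replicate 1). For leaf phase change, SE (SERRATE), which takes part in microRNA processing, differed by 0.03 and -0.03, and AGO7, which binds the microRNA miR390, by 0.09 and -0.38, none of them called and both genes under the filter on every array. The SPL phase change factors, floral integrators such as FT, and FLC activators had no named probe set and were not analysed here.

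LHCB4.2, a light-harvesting protein gene listed as a leaf marker, followed the same order of genotypes as GI and is bright. It read 12.9, 12.8 and 12.7 in wild type, 12.6, 12.5 and 12.6 in cct-1 and 13.1 on all 3 gct-2 arrays. The difference between the mutants was -0.52 (log2, SE 0.07, limma adjusted p = 0.00665). Against wild type LHCB4.2 rose by 0.30 in gct-2 (adjusted p = 0.0242), a call that ended in 5 of 9 fits that omitted an array (highest adjusted p = 0.0722, without gct-2 replicate 2), and differed by -0.23 in cct-1 (0.07). Of the 4 photosynthesis markers it was the 1 called in any comparison. The other markers did not follow the order of GI: PSBW differed from wild type by -0.25 in cct-1 and -0.0147 in gct-2, PSAN by -0.24 and -0.15, and PSAE-1 by -0.30 and -0.11 (lowest adjusted p = 0.0642), so their means were highest in wild type. The part of LHCB4.2 in the GI result was not tested.

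The named genes whose pattern over the 9 arrays was most like that of GI were AT1G33970 (Pearson's r = 0.987), AT1G56300 (0.986) and AT4G18930 (0.973), taken as the highest among 9334 named probe sets. All 3 lay above the filter on every array, so the order of the genotype means seen in GI was also present in bright probe sets, with smaller differences. AT1G33970 averaged 9.53 in cct-1, 10.1 in wild type and 10.7 in gct-2. AT1G56300 averaged 10.3, 10.8 and 11.2 in the same order, and AT4G18930 9.82, 10.2 and 10.5. These genes were picked for their likeness, the 9 arrays share 3 genotypes, and no test is given.

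**Figure D3:**
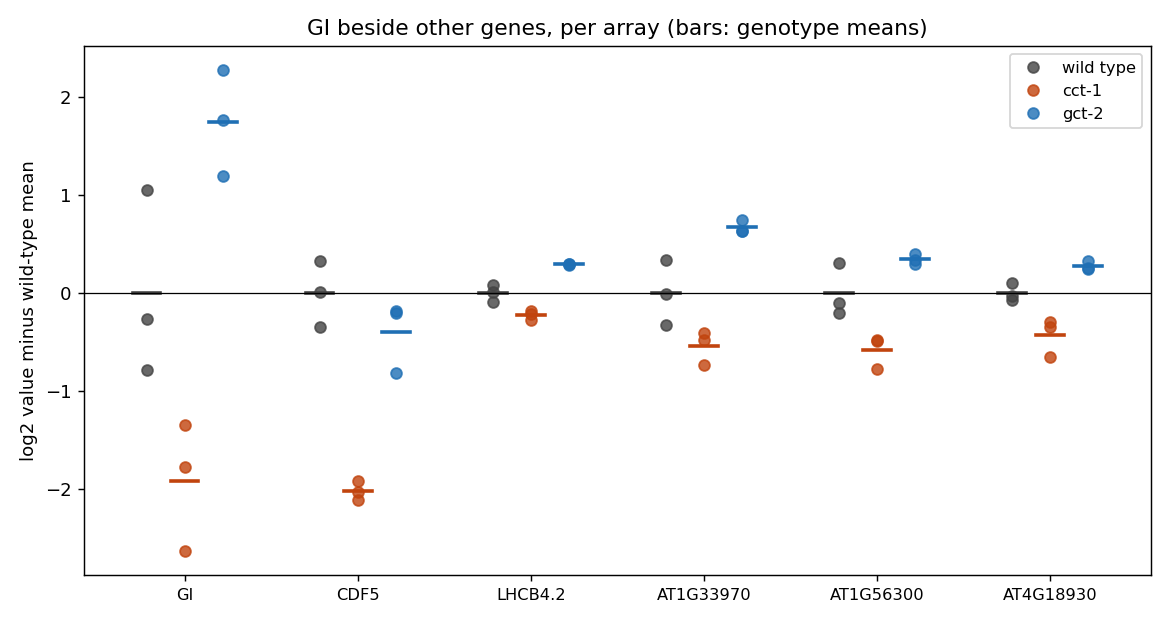
Log2 value of each array minus the wild-type mean (vertical axis) for GI, CDF5, LHCB4.2 and the 3 genes most like GI, with a bar at each genotype's mean. In GI, LHCB4.2, AT1G33970 and AT4G18930 the cct-1 arrays lie lowest and the gct-2 arrays highest. In AT1G56300 the cct-1 arrays lie lowest and wild-type replicate 1 lies just above gct-2 replicate 3, while in CDF5 the cct-1 arrays alone stand apart.

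For the other members the highest correlations were lower. SMZ was most like the protein kinase gene ATSIK (r = 0.967; means of 6.85 in wild type, 7.20 in cct-1 and 7.30 in gct-2). Next came AT1G67530 (0.956) and AT3G15760 (0.949), both under the filter on every array. FY was most like AT3G26800 (0.966), the ubiquitin ligase scaffold gene CUL4 (0.964) and AT4G10060 (0.95), and AGL18 was most like scpl29 (0.923), AT1G77540 (0.921) and AT1G21080 (0.915). SNZ reached 0.918 with AT3G14067, 0.912 with AT5G66070 and 0.87 with AT1G66090. LD reached 0.9 with AT4G18840, 0.872 with IAA30 and 0.868 with AT4G25390, and the dim AGL24 reached 0.938 with AT5G37480, 0.921 with AT4G35905 and 0.911 with AT2G40290.

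Counted together, 0 of the 5 members above the filter were called by limma in cct-1 against wild type, where 12.9% of all 10395 tested probe sets were, and 3 of 5 had an unadjusted p under 0.05 (28.9% of all). In gct-2 0 of 5 were called (15.3% of all) and 2 had such an unadjusted p (31.3%). Between the mutants it was 0 of 5 (6.39%) and 0 (22.8%), and with both mutants together 1 of 5, SMZ (16.2%). Groups did not overlap in 1 of 5 members in cct-1, AGL18 (32.3% of all), and in 1 of 5 in gct-2, SMZ (37.2%). With no filter, 1 of 7 members, GI, was called in each comparison of 2 genotypes, against 11.7% of all probe sets for cct-1, 15.7% for gct-2 and 4.59% for the mutants against each other, and against 12.7%, 18.9% and 4.79% of those that failed the filter. GI did not overlap between any 2 genotypes and AGL24 not between the mutants, beside 31.8% of all probe sets in cct-1 against wild type, 37% in gct-2 against wild type and 25.7% between the mutants. The median log2 difference of the 7 was -0.05 in cct-1 and 0.16 in gct-2, beside 0.02 and -0.01 over all probe sets. A count of 0 of 5 or 1 of 7 lies near or under the shares in the comparisons with wild type and is no result about the members as a group.

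**Figure D4:**
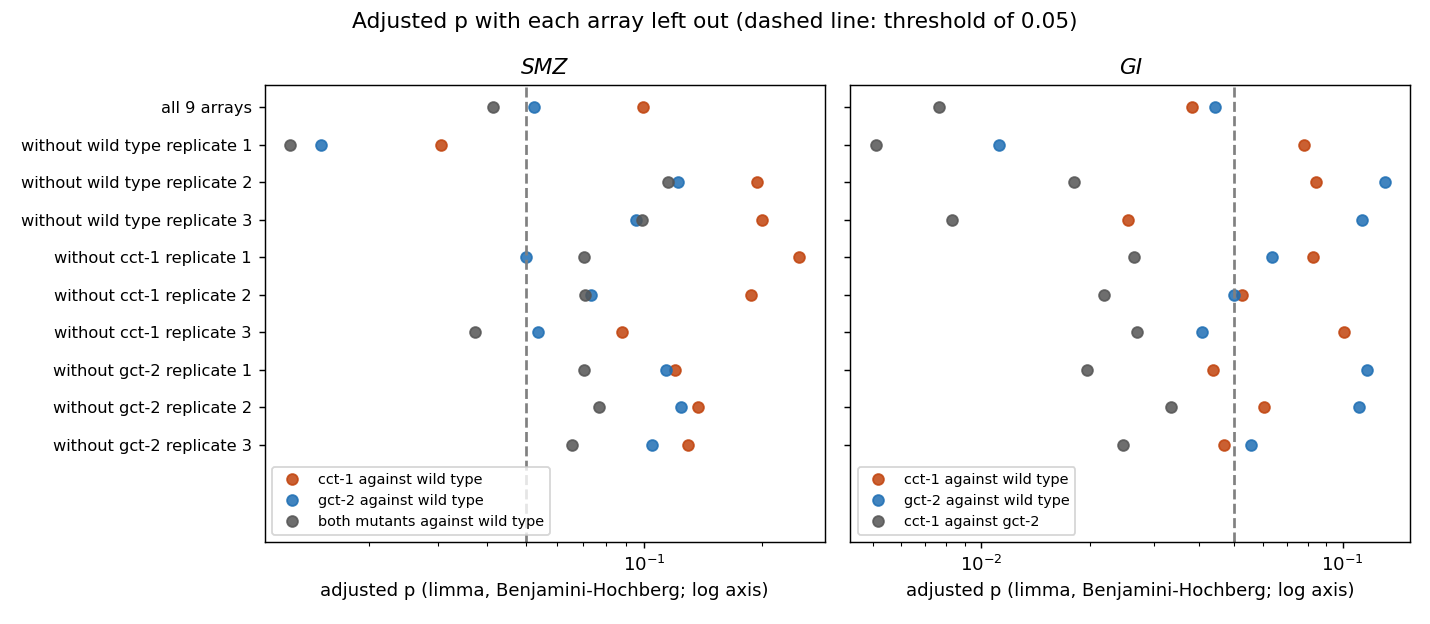
Adjusted p from limma (horizontal log axis, dashed line at 0.05) for SMZ and GI with all 9 arrays and with each array left out in turn. The GI difference between the mutants stays under 0.05 in all fits, at most at 0.0334, whereas each of the other 5 comparisons plotted has fits on both sides of the line.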

How the data were processed

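RNA from 9 seedling pools (50 ng each, amplified to cDNA, per the labels' protocols) was hybridised to Affymetrix arrays, 1 array per pool. The values were log2 probe set expression as deposited by the authors; the log2 scale was read from the values, which lay between about 1 and 14. GCRMA and MAS5 are named, with no role, per the submitters' processing notes. Their roles in background correction, normalization and the choice of the 16863 deposited probe sets are not stated in these sources. No image or probe-level data were used, and no pair of arrays held identical values.

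All 9 arrays entered 1 linear model of genotype means in limma 3.58.1 in R 4.3.3 (lmFit and eBayes), with Benjamini-Hochberg adjustment over all probe sets tested and a threshold of 0.05. The filtered fit held 10395 probe sets that exceeded the 40th percentile of 3 or more arrays, without 37 controls; the fit with no filter held 16826. The median standard error of a difference in the filtered fit was 0.111, and the number of arrays limits the precision. The fit was tested on simulated data, but neither the setting nor the outcome is given here.

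Symbols came from the platform annotation, and loci from a RefSeq table of the assembly TAIR10.1. Named genes were the members, called genes of the fixed lists and the 3 best correlated named probe sets of each member. The uncalled photosynthesis markers PSBW, PSAN and PSAE-1 are also named. TIC, FIO1, SE and AGO7 came from lists added to the fixed ones and are named whether called or not. Of 113 listed genes 14 had a named probe set. Members, lists and tests were chosen with earlier results of these data known. Over all tested probe sets same-numbered replicates did not deviate together (r of deviations from the genotype means -0.27 to 0.09), so numbers were not used to pair arrays. The alternatives were other filters, normalizations and variance models, array weights, a replicate block, omission of shared-sequence probe sets or single arrays, fits of the compared groups alone and, added after the data were seen, dim levels raised to the filter.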

Additional observations from a re-analysis of the deposited data

Results flagged for a closer look

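Among the 14 listed genes with a named probe set, members included, 3 differed between the mutants by the direct test of that difference. Over all probe sets, 6.39% were called between the mutants in the filtered fit and 4.59% in the fit with no filter. GI and CDF5 were taken from the fit with no filter, and the leaf marker LHCB4.2 from the filtered fit. The count therefore mixes fits and kinds of gene, and is no result about the lists as a group. The log2 difference, cct-1 minus gct-2, was -3.67 for GI (limma adjusted p = 0.00765 with no filter), -1.62 for CDF5 (adjusted p = 0.00637 with no filter) and -0.52 for LHCB4.2 (adjusted p = 0.00665). All 9 arrays of CDF5 and 8 of 9 of GI lay under the filter, and all 9 of LHCB4.2 lay above it. Single outlying arrays were not tested for within groups of 3.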

How the results depend on the processing

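Of 477 values of members under alternatives, 413 kept their direction and their side of the threshold, 26 lost a call, 14 gained one and 25 changed sign, 1 of which is also among the lost calls. The cause of these moves was not tested. Depth is not known for arrays, and dim signal limits GI and AGL24.

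The number of called probe sets rose with no filter from 1586 to 2640 in gct-2 and from 1689 to 2722 in both mutants together. More probe sets were tested there (16826 against 10395). The share called went from 15.3% to 15.7% in gct-2 and was 16.2% in both fits with both mutants together. With array weights the number rose to 2682 in gct-2 and, between the mutants, from 664 to 1023. Between the mutants it was 392 in a fit of the compared groups alone. With 1 array left out it ranged from 590 to 1310 in cct-1 and from 805 to 1646 in gct-2 (both lowest without wild-type replicate 2), from 151 (without gct-2 replicate 3) to 647 between the mutants, and from 766 (without wild-type replicate 2) to 1663 in both mutants together.

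Same-numbered replicates did not deviate together over all tested probe sets. SMZ nevertheless fell from replicate 1 to 2 to 3 in every genotype, and GI did so in wild type and gct-2. Whether the replicate number marks a shared condition was not tested. With it as a replicate block, 358 probe sets were called between the mutants. SMZ was then called in cct-1 (log2 difference 0.94, limma adjusted p = 0.035) and gct-2 (1.13, 0.0168). The GI calls against wild type stood at 0.0115 in cct-1 and 0.0114 in gct-2. No other call of a member changed under the block. Of the other genes named, AGL19 in cct-1 (adjusted p = 0.065) and LHCB4.2 in gct-2 (adjusted p = 0.0548) lost their calls under it. In no pair of genotypes did every array correlate best with the array of its own number.

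With array weights SMZ (0.97 and 1.1) and FY (0.42 and 0.35, and 0.39 in both mutants together, adjusted p = 0.0204) were called in cct-1 and gct-2. SNZ (0.0375 in cct-1, 0.12 in both mutants together), LD (0.021 in cct-1) and GI (0.0711 in both mutants together) changed sign without a call. Median centring called SMZ in gct-2 (1.13, adjusted p = 0.0455), and FY between the mutants turned to -0.0029 there and to -0.0033 with quantile normalization. In fits of the compared groups alone the GI calls were lost in cct-1 (-1.92, 0.0681) and gct-2 (1.75, 0.0626), the latter also with an intensity trend and robust variance (1.75, 0.0566). With levels raised to the filter SMZ was called in gct-2 (0.89, 0.0347), and GI was called in none (0.0187 in cct-1, 0.142 in gct-2, -0.12 between the mutants, 0.0806 in both mutants together). For GI that raising set all readings but gct-2 replicate 1 to the filter, so the loss of its calls was fixed in advance. These losses and sign changes of GI are nevertheless among those counted above.

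With 1 array left out the log2 difference of SMZ ranged from 0.56 to 1.29 in cct-1, 0.74 to 1.48 in gct-2, 0.65 to 1.38 in both mutants together and -0.42 to 0.011 between the mutants. For FY it ranged from 0.23 to 0.44, 0.21 to 0.43, 0.22 to 0.43 and -0.0384 to 0.0805 in the same order. For GI it ranged from -2.32 to -1.40 in cct-1, 1.36 to 2.28 in gct-2 and -0.48 to 0.44 in both mutants together. For SNZ it ranged from -0.23 to 0.13, -0.0779 to 0.273 and -0.15 to 0.20 in that order, for LD in cct-1 from -0.168 to 0.0125, for AGL24 in gct-2 from -0.016 to 0.118 and for FIO1 in cct-1 from -0.11 to 0.25.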
